A study of Sus scrofa with 61 samples.

Results

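The comparison described here set crossbred pig fetuses against the mid-parent value of the purebreds at day 110 of gestation, in longissimus muscle. Of the 61 arrays of the series, each holding the RNA of 1 fetus, the 29 arrays of day 110 were used: 8 LWMS and 5 MSLW crossbreds, 9 purebred Large White (LWLW) and 7 purebred Meishan (MSMS). LWMS fetuses had a Meishan mother and a Large White father, and MSLW fetuses had a Large White mother and a Meishan father. Large White is a lean European breed and Meishan a Chinese breed whose piglets survive better around birth. According to the study's methods all fetuses were male, and sows were inseminated with mixed semen of both breeds, so that crossbred and purebred fetuses could be litter-mates. The sow of each fetus was not used here, and litter-mates counted as independent. Since 1 cross had Meishan and the other Large White mothers, the breed of the mother was balanced between the mean of the crosses and the mean of the purebreds.

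Each parent passes on 1 allele of most genes. Where the alleles act independently, the amount of transcript in a crossbred lies at the average of the parental amounts, which is called additive expression. Where the crossbred stays near 1 purebred, expression is called dominant, and where it lies beyond both it is called out of range. The deviation d was the mean of the LWMS and MSLW group means less the mean of the LWLW and MSMS group means, on the log2 scale. The half-difference a was (MSMS - LWLW)/2, so that d/a was 0 at the mid-parent, 1 at the Meishan level and -1 at the Large White level. A mid-parent on the log2 scale is a geometric mean and lies below the average of the 2 signals themselves. The main deviations are therefore also given against the linear mid-parent, the average of the back-transformed purebred means. The classes below, additive included, refer to the log2 mid-parent unless the linear one is named.

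Per array, 37051 to 43708 probes were well above background by the scanner's mark (median 41318). After removal of probes dim in every group, 42436 probes were tested, of which 22794 had a gene symbol, for 10925 symbols. A probe was well above background in at least 80% of the arrays of each of the 4 groups for 35892 probes. Skeletal muscle markers were at 17.27 to 17.46 (mean log2 normalised signal of 12 genes) on every array. None of the 71 marker entries of muscle and 8 other tissue types deviated from the mid-parent at a false discovery rate (FDR) of 1%. With 1 probe per gene only 9 of all 10925 genes did, so the lack of calls among 71 entries says little about tissue make-up. The mean of 7 fibroblast markers was 12.01 to 12.47 in LWLW and 11.39 to 11.74 in MSMS, with LWMS at 11.58 to 12.40 and MSLW at 11.81 to 12.33; its part in other results was not tested. LWLW replicate 9 stood apart from the other LWLW fetuses for several genes named below. Without it d moved from 2.25 to 2.40 for ARG2, from -0.16 to -0.25 for PEG10 and from -0.01 to -0.03 for IGF2 on their main probes, and from 1.33 to 1.37 on the IYD probe where it stood apart. Without that fetus 45 probes were called for d, and without MSMS replicate 6, which stood apart for MTFP1, 47 were called, compared with 33 with all fetuses.

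The position of each fetus between the purebreds was read from probes that differed between Meishan and Large White by at least 1 (log2) in the other fetuses, those of day 90. Of 1388 such probes, the 861 to 885 per array that also differed by at least 1 between the other purebred fetuses of day 110 were used. On the log2 scale, with 0 at the LWLW mean and 1 at the MSMS mean of day 110, the median position of these probes was 0.42 to 0.50 in the 8 LWMS fetuses (median 0.47). The 5 MSLW fetuses were at 0.39 to 0.50 (median 0.43). All 13 crossbreds lay between the purebreds, whose fetuses were at -0.04 to 0.09 (LWLW) and 0.96 to 1.04 (MSMS). With linear signals the crossbreds moved closer to the centre, at 0.47 to 0.54 for LWMS (median 0.50) and 0.45 to 0.57 for MSLW (median 0.49).

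**Figure D1:**
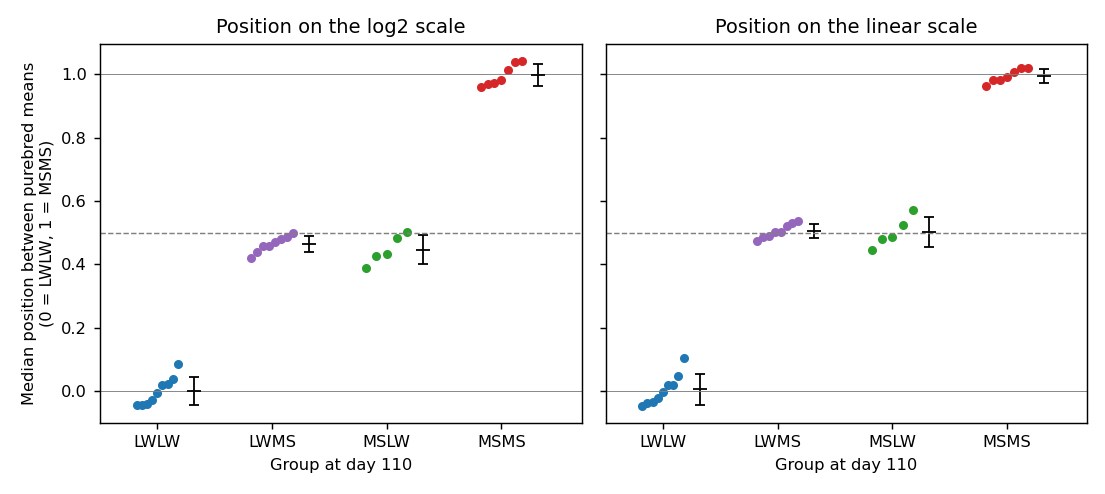
Median position of each fetus of day 110 (points) between the LWLW mean (0) and the MSMS mean (1), over probes that differed between the breeds at day 90, on the log2 scale (left) and the linear scale (right); black bars are the group mean and SD. All 13 crossbreds sit near the middle, at 0.39 to 0.50 on the log2 scale and 0.45 to 0.57 on the linear scale.

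Deviations from the mid-parent were small over the whole array. The median of d was 0.00 (log2), with quartiles of -0.07 and 0.07, and the median SE was 0.10. The 95% interval of d lay within 0.5 of 0 for 34931 probes (82.3%), and within 1 of 0 for 41584 probes (98%). At an FDR of 1%, 33 of 42436 probes (0.0778%) deviated. The crosses were higher for 32 of them (0.0754%) and lower for 1 (0.00236%). At an unadjusted p under 0.05 there were 2979 probes (7.02%), 1689 of them higher.

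The purebreds themselves differed for 12289 probes (29%), 5832 higher in MSMS and 6457 higher in LWLW. The median absolute breed difference was 0.26, compared with a median absolute d of 0.07. For 12051 of the breed-different probes (98.1%) the cross mean lay between the purebred means. For 7331 (59.7%) the whole 95% interval of d lay within |a|, with the purebred difference taken as known. These probes were selected on the same purebred arrays that set the range, which favours a high share. Over all probes 31.4% of cross means lay outside the range. Among the 2607 probes with a breed difference of at least 1, d/a had a median of 0.01 and quartiles of -0.25 and 0.22. A probe was classed as additive where the breeds differed and the whole 95% interval of d lay within 0.5 of |a|. This class held 802 probes for 363 symbols, 279 higher in MSMS and 523 higher in LWLW. It held 447 (17.1%) of the probes with a difference of at least 1. A further 11456 breed-different probes were left without a class, because d was not called and its interval was not within 0.5 of |a|. Some of these had an estimate far from the mid-parent, such as PGM1 (d/a = 0.82, adjusted p = 0.023).

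Additive genes with the largest excess in LWLW included muscle and imprinted genes. MYH3, the embryonic myosin heavy chain, had log2 signals of 14.90 to 17.25 in LWLW (median 16.84) and 13.13 to 14.32 in MSMS (median 13.76). LWMS fetuses were at 14.29 to 15.27 (median 14.84), and the MSLW fetuses had 14.16, 14.51, 14.56, 15.33 and 15.89. The purebreds did not overlap and the crosses lay between them, overlapping both, with d = -0.28 (SE 0.16, adjusted p = 0.792). Against the linear mid-parent MYH3 was at -0.90 (SE 0.17, adjusted p = 0.0293), or 53.5% of it. A probe that the array names MYHC, a myosin heavy chain, had a breed difference of -2.67 and d = -0.24 (SE 0.18), or -0.79 (SE 0.19) against the linear mid-parent.

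SGCE, which encodes epsilon-sarcoglycan of the muscle membrane, and PEG10, a retrotransposon-derived gene, are both imprinted, that is, expressed mainly from the paternal allele. SGCE was at 12.45 to 14.32 in LWLW (median 14.04), 10.20 to 12.18 in MSMS (median 11.06) and 11.72 to 13.25 in LWMS (median 12.32). MSLW fetuses had 11.73, 12.07, 12.28, 12.29 and 12.66, and d was -0.21 (SE 0.16). Against the linear mid-parent SGCE was at -0.80 (SE 0.17, adjusted p = 0.0438). The lowest LWLW value, 12.45, was that of replicate 9, and without it d was -0.30. PEG10 had a breed difference of -2.70 and d = -0.16 (SE 0.16), or -0.71 (SE 0.17) against the linear mid-parent. Both crosses of both genes had group means between the purebred means, at 12.36 and 12.21 for SGCE and 13.95 and 13.76 for PEG10 in LWMS and MSLW. P4HA3, a subunit of the enzyme that hydroxylates collagen prolines, had a breed difference of -2.54 with d = 0.36 (SE 0.11, adjusted p = 0.269). LWMS on its own was above the P4HA3 mid-parent by 0.64 (adjusted p = 0.00248), and MSLW by 0.07 (adjusted p = 0.952).

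Of the additive genes higher in MSMS, PECI (now ECI2) encodes an enoyl-CoA isomerase of fatty acid oxidation. It was at 7.68 to 8.52 in LWLW (median 8.27), 10.05 to 10.73 in MSMS (median 10.50) and 9.13 to 9.85 in LWMS (median 9.70). MSLW fetuses had 8.93, 9.41, 9.73, 9.80 and 9.94. The 13 crossbreds overlapped neither purebred, and d was 0.26 (SE 0.11, adjusted p = 0.626). The potassium channel gene KCNQ3 (breed difference 3.09, d = -0.18, SE 0.29), the histone gene HIST1H2AA (2.91, d = 0.19, SE 0.22), the centromere gene APITD1 (2.90, d = 0.11, SE 0.26) and the lipid transfer gene STARD10 (2.50, d = 0.18, SE 0.18) completed the largest 5. Against the linear mid-parent KCNQ3, HIST1H2AA, APITD1 and STARD10 were at -0.89, -0.44, -0.52 and -0.30 (SE 0.34, 0.26, 0.31 and 0.21), and PECI at -0.15 (SE 0.13). For KCNQ3 and APITD1 the crossbreds were spread over 4.06 to 8.38 and 6.5 to 9.70 and overlapped both purebreds.

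Of 23 genes chosen from those that the study's text names, ARG2 and GPD1 were called for d and 21 were not. IGF2, the fetal growth factor, was 0.42 higher in LWLW on its main probe and had d = -0.01 (SE 0.04). Over its 9 probes the breed difference was -1.74 to -0.42 and d was -0.14 to 0.25. PHKA1, a phosphorylase kinase subunit, SLC38A4, an amino acid transporter, and NUSAP1, a spindle protein, were also additive, with d of -0.02, 0.04 and 0.05 (SE 0.08, 0.17 and 0.11). For PHKA1 this was the mean of unlike crosses, with LWMS at 11.84 near MSMS at 11.96 and MSLW at 11.09, and the crosses differed by 0.75 (adjusted p = 1.78e-05). PCK2, LDHA, PGK1 and PYGM, enzymes of glucose and glycogen metabolism that were higher in MSMS, had d of 0.39, 0.15, 0.09 and 0.14 with adjusted p of 0.771 or more. RASGRP3 (0.22), DUT (0.11), DCI (0.16), STMN1 (0.08), MAGEL2 (0.09), GBP1 (0.22), COL5A2 (0.01), CREM (0.03), SPG7 (-0.04), SORD (-0.15), IL1RAPL2 (-0.13) and DLK1 (-0.22) had adjusted p of 0.662 or more.

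Dominant expression was called for 28 probes and 15 symbols, where the breeds differed, d passed an FDR of 1% and |d/a| was 0.5 to 1.5. Of these, 10 lay toward MSMS and 18 toward LWLW, and all 28 lay toward the purebred with the higher signal. Without MSLW replicate 4 there were 17. Of the other 5 called probes, 2 were partial (|d/a| under 0.5), 1 was overshooting (above 1.5) and 2 had no called breed difference. Of the 33 called probes, 30 had a breed difference of at least 1 and 21 of at least 3. The log2 mid-parent lies furthest below the linear one in such probes. Against the linear mid-parent the crosses stood at 62.5% to 218% (median 124%), and none of the 33 was called. On that scale none of the 28 was therefore classed as dominant. The additive rule applied there placed most of them in the additive class, ARG2 (main probe), TMOD3, MOS and BCAS2 among them. Its limit of 0.5 of |a| was kept around the linear mid-parent, which lies closer to the higher purebred. With a large |a| the limit reaches past that purebred, so the class does not separate additive from dominant expression there. For ARG2 the linear interval, -0.18 to 1.32 around a mid-parent of 10.79, included the MSMS mean of 11.75. The rest of the 28, GPD1 and RPRM included, were neither called nor inside the limit. On their main probes GPD1 and RPRM had linear intervals of 0.11 to 0.61 and 0.32 to 1.13, above 0 but without a call. In 14 of the 33 the signal was well above background in at least 80% of the arrays of all 4 groups. In 6, 1 purebred had no array well above background.

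**Figure D2:**
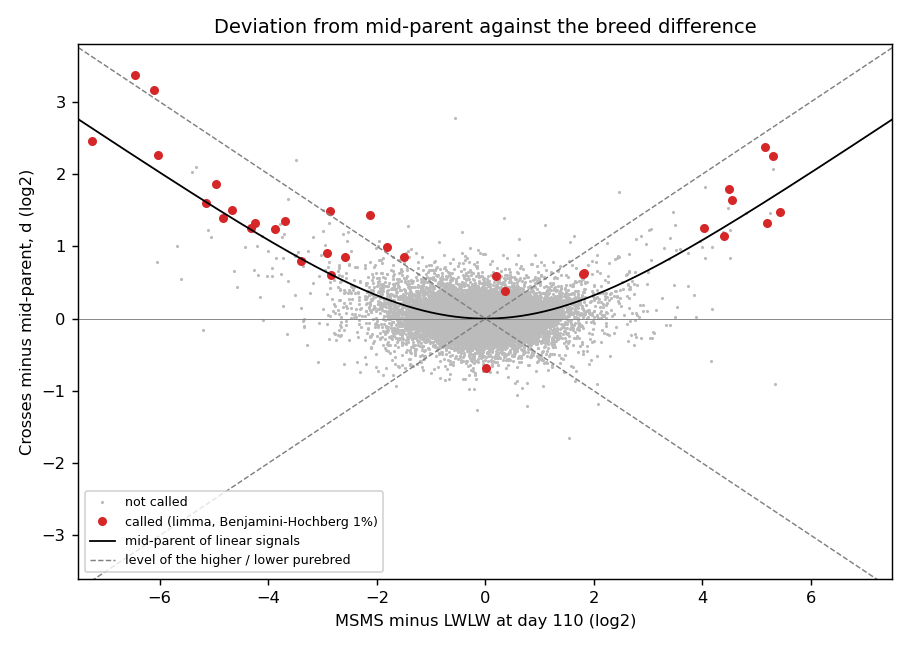
Deviation d of the crosses from the log2 mid-parent against the breed difference MSMS minus LWLW at day 110 for 42436 probes; red points are the 33 called probes, the black curve is the place of the linear mid-parent, and dashed lines are the purebred levels. Called probes with a breed difference of 3 or more lie on both sides of the black curve, and 1 called probe lies below 0.

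ARG2, the mitochondrial arginase that splits arginine into ornithine and urea, had the largest deviation of the named genes with signal in all groups. Log2 signals were 5.51 to 8.72 in LWLW (median 6.30), 10.05 to 12.96 in MSMS (median 12.27) and 9.67 to 12.61 in LWMS (median 11.47). MSLW fetuses had 8.74, 11.04, 11.13, 12.41 and 12.69. The crossbreds lay above every LWLW fetus and overlapped MSMS. ARG2 had d = 2.25 (SE 0.30, adjusted p = 5.21e-06) with d/a = 0.85, and its second probe had d = 1.80 (SE 0.28). Against the linear mid-parent the deviation was 0.57 (SE 0.37, adjusted p = 0.868), or 149% of it. The value of 8.72 was that of LWLW replicate 9. When the 29 arrays of day 110 were fitted alone, without the spread of day 90, ARG2 no longer passed (adjusted p = 0.0135).

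GPD1, the cytosolic glycerol-3-phosphate dehydrogenase that links glycolysis to lipid synthesis, also lay toward MSMS. It was at 13.19 to 14.62 in LWLW (median 13.41), 14.86 to 15.91 in MSMS (median 15.30) and 14.58 to 15.70 in LWMS (median 14.99). MSLW fetuses had 14.77, 14.77, 15.22, 15.28 and 15.52. The crossbreds overlapped MSMS, and of LWLW only the highest fetus, replicate 9. GPD1 had d = 0.63 (SE 0.11, adjusted p = 0.00176) with d/a = 0.70, and it was 0.70 without replicate 9. All 5 probes had d of 0.52 to 0.66, and 2 of them were called. The deviation from the linear mid-parent was 0.36 (SE 0.12, adjusted p = 0.426). The call was lost without MSLW replicate 4 (adjusted p = 0.0117) and with the arrays of day 110 alone.

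RPRM, reprimo, a mediator of cell cycle arrest downstream of p53, lay toward LWLW. It was at 7.52 to 9.84 in LWLW (median 8.58), 5.68 to 7.97 in MSMS (median 6.97) and 7.86 to 8.77 in LWMS (median 8.27), and MSLW fetuses had 7.87, 8.92, 9.41, 9.52 and 9.61. The groups overlapped. RPRM had d = 0.99 (SE 0.20, adjusted p = 0.00732) with d/a = -1.09, and 0.72 (SE 0.20, adjusted p = 0.247) against the linear mid-parent. RPRM stayed called in 13 of the 29 fits that left out 1 fetus, and not with slide as a block (adjusted p = 0.0141), normexp (0.0157) or the arrays of day 110 alone (0.222). It also missed 1% without a filter on dim probes, with the stricter filter and without moderation of the variance.

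FAM118A was the partial case. It was at 9.84 to 10.44 in LWLW (median 10.09), 6.69 to 7.75 in MSMS (median 7.38) and 8.95 to 9.54 in LWMS (median 9.37), and MSLW fetuses had 9.18, 9.20, 9.42, 9.47 and 9.48. No 2 of LWLW, MSMS and the crossbreds overlapped. FAM118A had d = 0.60 (SE 0.10, adjusted p = 0.000439), and it was called in each of the 29 leave-out fits. Against the linear mid-parent the deviation was -0.01 (SE 0.11), so the crossbreds stood at 99.4% of the average of the purebred signals.

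The smallest p of all probes was that of a probe to which no gene symbol could be given, and 11 of the 33 called probes had none. The sequences of 4 of these are shown because they are the only identity of these transcripts (array probes, 5' to 3', as listed with the array files).
A_72_P166816: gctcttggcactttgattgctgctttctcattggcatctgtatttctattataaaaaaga
A_72_P417829: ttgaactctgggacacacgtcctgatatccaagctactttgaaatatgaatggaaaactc
A_72_P211877: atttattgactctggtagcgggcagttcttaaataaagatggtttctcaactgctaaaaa
A_72_P401904: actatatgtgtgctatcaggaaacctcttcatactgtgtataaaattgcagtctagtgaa
The first of these, A_72_P166816, was at 9.32 to 9.94 in LWLW (median 9.46), 4.91 to 5.49 in MSMS (median 5.19) and 8.54 to 9.13 in LWMS (median 8.70). MSLW fetuses had 8.16, 8.19, 8.41, 8.60 and 8.92. The crossbreds overlapped neither purebred. For this probe d was 1.26 (SE 0.09, adjusted p = 1.8e-15), and the deviation from the linear mid-parent was 0.03 (SE 0.10). With normexp background correction d was 0.72 and still called. A_72_P417829, with d = 2.46 (SE 0.24), was well above background in 1 of 7 MSMS fetuses, and its deviation from the linear mid-parent was -0.17 (SE 0.28). Its d was 1.02 with normexp.

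Other called genes fell outside the naming rule, either because 1 purebred had little or no signal or because the called probe was not the brightest of its gene, and they were chosen after their values were seen. MTFP1, a protein of mitochondrial fission, had 2 probes, 1 under the older symbol MTP18. On the MTFP1 probe LWLW was at 9.07 to 10.58 (median 9.66), LWMS at 9.37 to 10.52 (median 9.89) and MSLW at 9.24, 9.76, 9.91, 10.05 and 10.12. MSMS ranged from 1.87 to 9.86 (median 2.75), and only replicate 6, at 9.86, was well above background. The crossbreds overlapped LWLW and that single MSMS fetus. MTFP1 had d = 3.16 (SE 0.38, adjusted p = 1.96e-07), and 3.68 without MSMS replicate 6. Since MSMS was mostly not well above background, these are not exact sizes. With each such array raised to its lowest measurable signal, a setting chosen after seeing the data, d was 2.53, and with normexp background correction it was 1.70. The crossbreds stood at 213% of the linear mid-parent (deviation 1.09, SE 0.43, adjusted p = 0.565).

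TMOD3, which caps actin filaments, was well above background in 1 of 7 MSMS fetuses and in every fetus of the other groups, with d = 1.86 (SE 0.27) and 0.33 (SE 0.30) against the linear mid-parent. MMRN2, an extracellular protein of endothelium, had 2 called probes of 5, with d = 2.26 and 1.24, and 0.22 and 0.20 against the linear mid-parent. Over all 5 probes d was 0.21 to 2.26. MSLW replicate 5 stood apart for MMRN2: on the second probe the 5 MSLW values were 6.44, 9.73, 9.95, 10.19 and 10.26. MSMS was at 6.0 to 6.57 there, and LWLW and LWMS together at 9.45 to 10.70. SL44-1 (d = 2.38, SE 0.47) ranged from 1.53 to 8.27 in LWLW and VTI1B, a vesicle fusion protein (d = 1.64, SE 0.31), from 3.47 to 5.75. The other VTI1B probe had a breed difference of -0.27 and d = -0.06. SL44-1 and VTI1B were no longer called with the median signal, the deposited table, normexp, day 110 alone or the linear mid-parent, nor SL44-1 with slide as a block, without a filter on dim probes or without moderation of the variance. With normexp d fell to 0.77 for TMOD3 and 0.95 for the first MMRN2 probe, which both lost their call (adjusted p = 0.132 and 0.0449). The kinase gene MOS (d = 1.32) and the splicing gene BCAS2 (d = 1.51, on 1 of its 11 probes) were at 0.12 and 0.11 against the linear mid-parent. With normexp MOS was at 0.23 and not called (adjusted p = 0.223), and BCAS2 was at 0.72. In 10 alternative settings, the linear mid-parent included, TMOD3 and MOS each lost their call in 4, the first MMRN2 probe in 3 and BCAS2 in 2. Over its 11 probes BCAS2 had a median d of 0.05. FAM53B had d = 0.86 on 1 of 2 probes, where the breed difference was -2.59, and was not called when non-uniform spots were kept (adjusted p = 0.834). Its other, brighter probe had a breed difference of 0.78 and d = -0.04.

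Where a purebred had no array well above background, only a bound could be given, with that group set to the lowest measurable signal. IYD, which recovers iodide from iodotyrosines in the thyroid, was not well above background in LWLW. Its MSMS signal was at least 7.80-fold and the crosses at least 3.25-fold the LWLW bound on 1 probe, and at least 10.8-fold and 5.20-fold on another. CNTN3, a neural adhesion protein, was not well above background in MSMS, with LWLW at least 7.69-fold and the crosses at least 3.78-fold above, on 1 of 2 probes. The brighter CNTN3 probe had a breed difference of -0.33 and d = -0.06. For A_72_P211877, also not well above background in MSMS, these bounds were 9.46-fold and 4.81-fold, and for A_72_P019101, not well above background in LWLW, 6.99-fold and 4.12-fold. RBP4, the retinol carrier, was not well above background in MSMS on 1 of 4 probes, with bounds of 1.24-fold and 1.33-fold, and its brightest probe had d = 0.04. With that purebred at its bound, d of these 6 probes was 0.22 to 0.67 in place of 0.85 to 1.60.

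**Figure D3:**
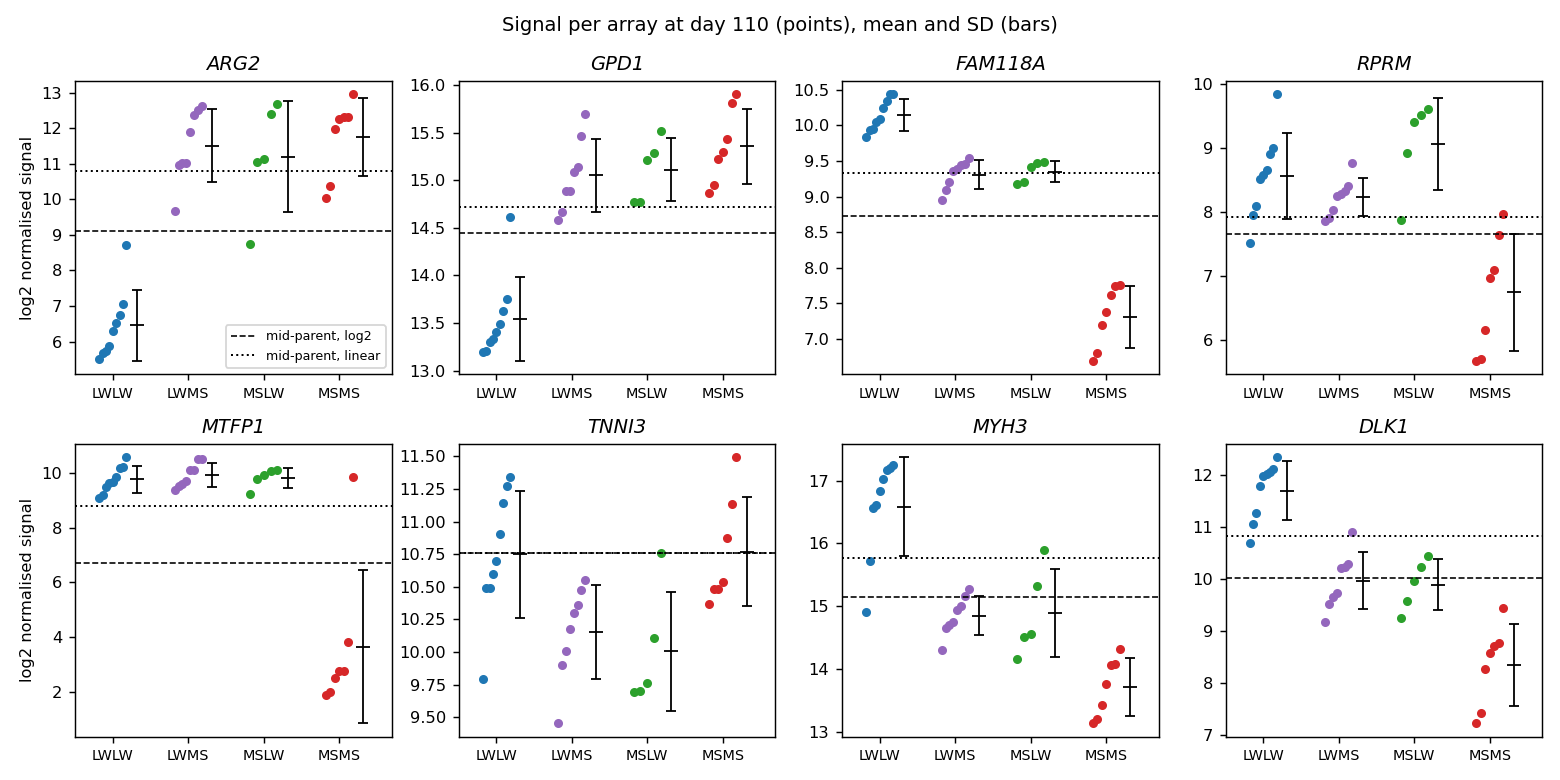
Log2 normalised signal of each fetus of day 110 (points) by group for ARG2, GPD1, FAM118A, RPRM, MTFP1, TNNI3, MYH3 and DLK1. The marks in each panel show that crossbreds lie near MSMS for ARG2 and GPD1, near LWLW for MTFP1, between the purebreds for FAM118A, MYH3 and DLK1, and that the cross means lie below both purebred means for TNNI3.

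The size of d followed the size of the breed difference. Probes were sorted by the breed difference of day 90, which comes from other fetuses than d of day 110. In the 1756 probes that differed by under 0.5 the median d was 0.00. It was 0.02 for differences of 0.5 to 1 (2303 probes), 0.09 for 1 to 2 (1066 probes), 0.21 for 2 to 3 (234 probes) and 0.67 for 3 or more (88 probes). The share of probes with d above 0 was 52.1%, 57.6%, 66.1%, 73.5% and 84.1% in the same order. Averaging of linear signals, computed from the purebred means of day 90, would give medians of 0.01, 0.04, 0.14, 0.42 and 0.97. Measured against the linear mid-parent of day 110, the crosses were at medians of -0.01, -0.01, -0.04, -0.09 and -0.01, while d itself rose from bin to bin. These probes share fetuses and include several probes of some genes, so the medians are descriptions.

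**Figure D4:**
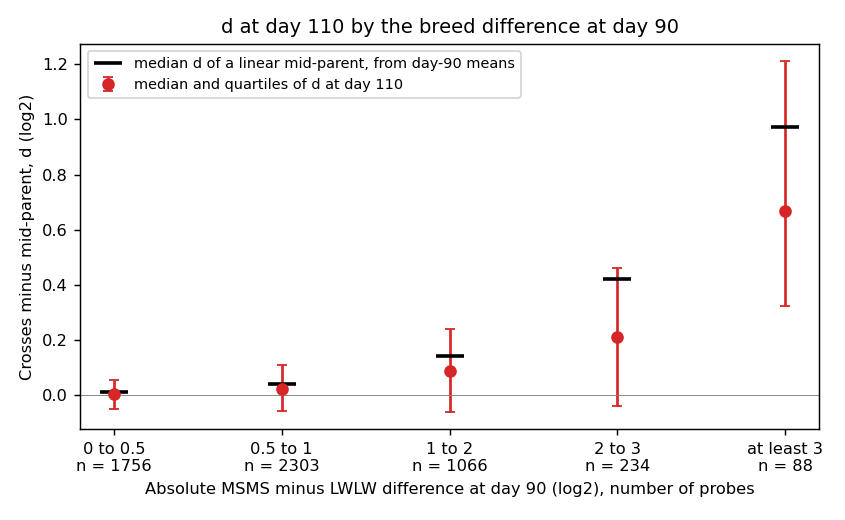
Median and quartiles of d at day 110 (red) for probes grouped by their absolute breed difference at day 90, with the median d that a linear mid-parent would give (black). The red medians rise from 0.00 to 0.67, and the black marks from 0.01 to 0.97.

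Against the linear mid-parent, 2 probes were called at an FDR of 1% (0.00471%), both lower in the crosses. An unnamed probe, A_72_P218247, lay between purebreds that it did not overlap, with d = -0.18 (SE 0.06) and a linear deviation of -0.45 (SE 0.06, adjusted p = 0.000148). IL17A, a cytokine of T cells, was well above background in 7 of 9 LWLW and 6 of 8 LWMS fetuses. It was at 4.18 to 4.78 in LWLW (median 4.56), 5.59 to 6.88 in MSMS (median 6.24) and 4.30 to 5.03 in LWMS (median 4.71), and MSLW fetuses had 4.32, 4.43, 4.66, 4.73 and 5.38. The crossbreds overlapped LWLW and not MSMS, and the linear deviation was -0.88 (SE 0.15, adjusted p = 0.00731).

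At an FDR of 5%, 25 probes deviated from the linear mid-parent, 22 of them lower. They included MYH3 (-0.90, SE 0.17, adjusted p = 0.0293), SGCE (-0.80, SE 0.17, adjusted p = 0.0438) and the water channel AQP3 (-0.64, adjusted p = 0.0293). DLK1, an imprinted membrane protein of the Notch ligand family, passed on 5 of its 6 probes, at -0.47 to -0.93, but not on its brightest probe (-0.50, adjusted p = 0.473). On the DLK1 probe A_72_P441289 LWLW was at 10.68 to 12.33 (median 11.98), MSMS at 7.22 to 9.44 (median 8.57) and LWMS at 9.16 to 10.89 (median 9.97). MSLW fetuses had 9.24, 9.57, 9.95, 10.23 and 10.44 there, so the crosses lay between the purebreds and overlapped both. On the log2 scale the same probe had d = -0.10 (SE 0.17). IGF2 passed on 1 of 9 probes (-0.30, adjusted p = 0.0395), and PEG10 did not (-0.71, adjusted p = 0.11).

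No probe had crosses outside the parental range at an FDR of 1% (0%) or 5%, with limma, for the mean of both crosses or where both crosses each had to lie beyond both purebreds. At an unadjusted p under 0.05 there were 199 probes, 104 above and 95 below both purebreds, for the mean, and 18 for both crosses. As point values 13315 cross means (31.4%) lay outside the range. The smallest p, 8.22e-05 (adjusted p = 1), was that of TNNI3, cardiac troponin I, which was also the 1 probe called lower than the mid-parent. TNNI3 was chosen for description after its values were seen.

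On that TNNI3 probe LWLW was at 9.79 to 11.34 (median 10.69), MSMS at 10.37 to 11.49 (median 10.53) and LWMS at 9.45 to 10.55 (median 10.24). MSLW fetuses had 9.69, 9.70, 9.76, 10.11 and 10.76, and all groups overlapped. TNNI3 had d = -0.68 (SE 0.13, adjusted p = 0.00458), the breed difference was 0.02 (SE 0.17), and the crosses stood at 62.5% of the linear mid-parent. The means of the crosses were below both purebred means on all 9 TNNI3 probes, with d of -0.52 to -0.68. All 9 had an adjusted p under 0.05, and the probes share 1 gene and the same RNA. Within the 4 slides that hold all groups the deviation was -0.41, -1.42, 0.13 and -0.88. The call was kept in 23 of 29 leave-out fits and not with slide as a block (adjusted p = 0.017).

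Among cross means above both purebreds as point values, A_72_P401904 had group means of 8.62 (LWLW), 8.97 (MSMS), 9.34 (LWMS) and 9.01 (MSLW). Its d was 0.38 (SE 0.07, adjusted p = 0.00458), a test of the mid-parent and not of the range. The cross mean was 0.20 above MSMS (adjusted p = 0.148), and the out-of-range test gave an unadjusted p of 0.0296. LWMS on its own deviated from the mid-parent by 0.55 (adjusted p = 2.13e-05) and MSLW by 0.21 (adjusted p = 0.423). A_72_P367118 was at 4.05 in LWLW and 3.49 in MSMS, and at 6.5 and 6.60 in the crosses. It was well above background in 4 of 9 LWLW, 2 of 7 MSMS and all 13 crossbred fetuses. Its d was 2.78 (SE 0.58, adjusted p = 0.0145), which missed 1%. With purebred arrays that were not well above background raised to their lowest measurable signal d was 1.78, with no test.

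Each cross was also compared with the mid-parent on its own, and both comparisons share the purebreds. LWMS deviated for 159 probes (0.375%), 74 higher and 85 lower, and MSLW for 79 (0.186%), 62 higher and 17 lower. Without MSLW replicate 2 there were 49 for MSLW. The median SE was 0.12 for LWMS and 0.14 for MSLW. All 33 probes called for the mean of the crosses had the same sign in both, which selection on that mean favours. For ARG2 the deviations were 2.41 (LWMS) and 2.10 (MSLW), for GPD1 0.60 and 0.66, and for RPRM 0.58 and 1.41. For IYD they were 0.56 and 2.09, and the difference between the crosses was -1.53 (adjusted p = 0.000923). The crosses differed directly for 387 probes, including 120 of the probes called for either cross. MAGEL2, an imprinted gene, was at 6.54 to 7.34 in LWMS and at 8.17, 8.45, 8.47, 8.56 and 8.84 in MSLW, with no overlap, while the mean of both crosses was at d = 0.09 (SE 0.10).

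At day 90 d was called for 21 probes, all higher, and 14 of these were called at both ages. Of the 33 probes of day 110, 30 had the same sign at day 90. For FAM118A d was 0.67 at day 90 and 0.60 at day 110, and for A_72_P166816 1.31 and 1.26. For ARG2 it was 0.27 and 2.25, for GPD1 0.15 and 0.63, and for RPRM 0.45 and 0.99. The difference between the ages passed an FDR of 1% for 1 probe (0.00236%), A_72_P211877, at 1.66 as measured. This probe was well above background in 7 of 8 MSMS fetuses at day 90 and in none of 7 at day 110, and with MSMS at its bound at day 110 the age difference was 0.71, with no test. The call was lost without MSLW replicate 3, and there were 3 without MSMS replicate 6 and 2 without MSLW replicate 5. At an unadjusted p under 0.05 there were 1306 probes. Of the 5447 probes that differed between the breeds at day 90, 25 were called for d at day 110. In all 25 the crosses lay above the log2 mid-parent, and the breed higher at day 90 was MSMS for 8 and LWLW for 17. As 32 of all 33 called probes had d above 0, this direction was nearly given beforehand. The 1 probe of the 5447 called against the linear mid-parent lay below it.

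Across 30 lists of pathway genes, with 1 probe per gene, 28 lists had no gene called for d, and medians of d ranged from -0.15 to 0.16. Of 713 list entries 2 were called, compared with 9 of all 10925 genes, so a list without a call says little. Over all 10925 genes the median was 0.00, with quartiles of -0.06 and 0.06, and 7.36% of genes had an unadjusted p under 0.05. The list of serine synthesis and amino-acid response genes, targets of the stress factor ATF4, had the highest median, 0.16 over 24 genes. Of these 21 had d above 0, and 10 had an unadjusted p under 0.05, all higher, but only ARG2 was called. Its median against the linear mid-parent was 0.12.

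PHGDH, the first enzyme of serine synthesis, was at 9.43 to 11.47 in LWLW (median 10.20), 10.93 to 13.34 in MSMS (median 12.72) and 10.98 to 12.63 in LWMS (median 11.71). MSLW fetuses had 11.33, 12.53, 12.82, 13.19 and 13.61. All groups overlapped, and d was 0.88 (SE 0.21, adjusted p = 0.0452). PSPH, which completes serine synthesis, had d = 0.58 (SE 0.18), the hormone gene FGF21 0.53 (SE 0.17), asparagine synthetase ASNS 0.51 (SE 0.20) and the tRNA ligase gene AARS 0.28 (SE 0.10), with adjusted p of 0.256 or more. PSPH and AARS deviated by 0.51 and 0.28 from the linear mid-parent, ASNS by 0.11. ATF4 itself had d = 0.13 (SE 0.07).

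**Figure D5:**
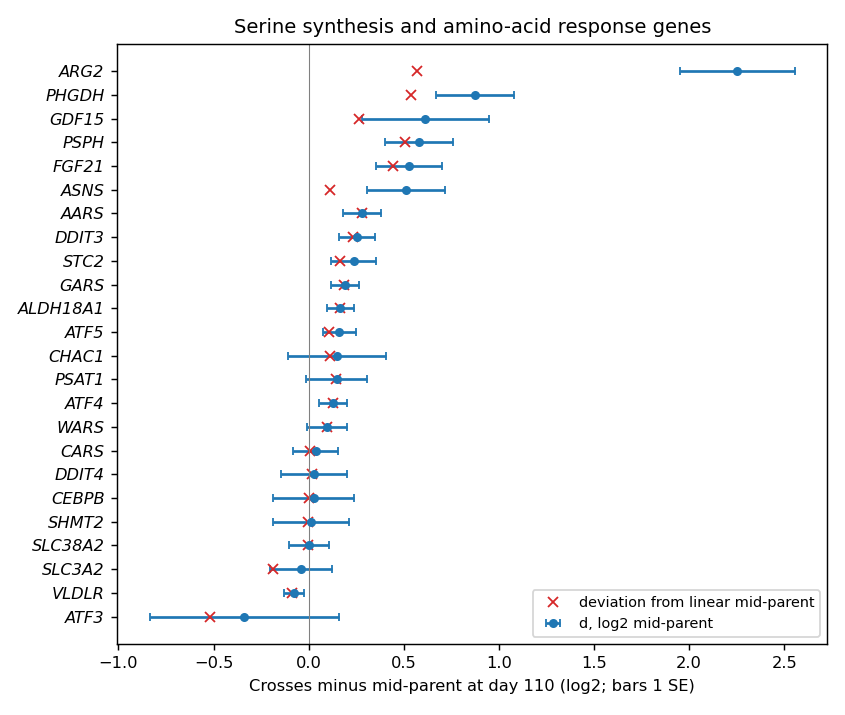
Deviation d of the crosses from the log2 mid-parent (blue points, bars 1 SE) and from the linear mid-parent (red crosses) at day 110 for 24 genes of serine synthesis and amino-acid response. Blue points lie above 0 for 21 genes, and ARG2, at 2.25 (log2 scale) and 0.57 (linear scale), has the largest gap between both.

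In energy metabolism, the glycogen list had a median d of 0.10 over 14 genes, with 3 at an unadjusted p under 0.05. PGM1, phosphoglucomutase, was at 10.47 to 13.85 in LWLW (median 11.32), 14.49 to 15.14 in MSMS (median 14.66) and 14.07 to 14.51 in LWMS (median 14.20). MSLW fetuses had 14.41, 14.46, 14.52, 14.84 and 14.96. The crossbreds lay above every LWLW fetus, with d = 1.23 (SE 0.27, adjusted p = 0.023) and 0.56 (SE 0.31) against the linear mid-parent. GYG1, the primer of glycogen, had d = 0.22 (SE 0.07) and EPM2A, a glycogen phosphatase, 0.18 (SE 0.08). Of the gluconeogenic, polyol and glycerol-phosphate list 1 of 10 genes was called, GPD1. Of 44 nuclear-encoded respiratory chain genes 37 had d above 0, with a median of 0.04, and none was called. Glycolysis (17 genes) had a median of 0.01, the citric acid cycle with pyruvate dehydrogenase (26 genes) 0.03, fatty acid oxidation (20 genes) -0.03 and fatty acid uptake and storage (24 genes) 0.03.

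Of the collagens 15 of 20 differed between the breeds, all higher in LWLW, and for all 15 the 95% interval of d lay within the parental range. Over all genes 32.1% differed between the breeds, and over all breed-different probes 59.7% had such an interval. The fibroblast markers were higher in LWLW than in MSMS as well, and their part in this result was not tested. COL1A1 had group means of 15.66 (LWLW), 14.62 (MSMS), 15.31 (LWMS) and 15.32 (MSLW), with d = 0.17 (SE 0.08). SPARC, a collagen-binding matrix protein, had d = 0.20 (SE 0.05, adjusted p = 0.161). Of 28 mitosis and spindle genes none was called, and the median d was 0.02. Myosins (11 genes) had a median of 0.02, thin filament and Z-disc genes (29 genes) -0.02 and calcium handling genes (18 genes) 0.02.

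The lists with the lowest medians were those of the neuromuscular junction (-0.15), interferon-stimulated genes (-0.13) and imprinted genes (-0.10). All 8 neuromuscular genes had d below 0, led by LRP4, a receptor of the synapse (-0.19, SE 0.07, adjusted p = 0.389), CHRNG, the fetal acetylcholine receptor subunit (-0.31, SE 0.16), and ACHE, acetylcholinesterase (-0.42, SE 0.23). Of 29 interferon-stimulated genes 5 had d above 0, and IFI44L, MX2 and ISG15 were at -0.34, -0.46 and -0.54 with adjusted p of 0.615 or more. Of 18 imprinted genes 6 had d above 0, with a median of -0.15 against the linear mid-parent. INPP5F was at -0.17 (SE 0.06, adjusted p = 0.432) and IGF2R, the receptor that clears IGF2, at -0.14 (SE 0.06).

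The other 14 lists had no gene called and medians of -0.06 to 0.10. In the immediate early and cAMP response genes (median -0.06) KLF4 and FOSL2 were at -0.21 and -0.23, and in the hormone response list (median -0.05) THRA was at -0.17. Medians were -0.02 for the IGF system and insulin signalling, heat shock proteins, and atrophy and autophagy genes, -0.01 for proteasome and DNA replication genes, and 0.00 for myogenic regulators and swine MHC genes. They were 0.01 for cytosolic and 0.04 for mitochondrial ribosomal proteins, 0.02 for antioxidant enzymes, 0.03 for proteoglycans and 0.10 for xenobiotic and sulphur metabolism. In the myogenic list 8 of 17 genes had an unadjusted p under 0.05, 3 higher and 5 lower, with ID3 and ID2, inhibitors of differentiation, at -0.38 and -0.32. PLIN1, which coats lipid droplets, was at d = 0.60 (SE 0.19, adjusted p = 0.317) with no called breed difference.

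Of the 33 called probes 31 kept the sign of d within each of the 4 slides that hold all groups, with A_72_P401904 and TNNI3 as exceptions on 1 slide each. The probes were called for d on these same arrays, which favours a shared sign. With slide as a block 26 of the 33 were called. In bulk muscle, a change in the share of a cell type and a change of RNA per cell could not be told apart.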

How the data were processed

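The authors deposited 1 scanner file per fetus (Agilent Feature Extraction 10.10.1.1, 1 colour, Cy3) with linear intensity values not normalized between arrays, and a table of quantile normalized log2 values, whose rows were matched to spots by their order in the scanner file (lowest correlation with an array's signal 0.9982) and which served as an alternative. Here, 60306 non-control spots were used. Spots marked non-uniform were set to missing, then the processed intensity (background already subtracted by the scanner software) of the 61 arrays was quantile normalized, taken to log2 and averaged per probe. A probe was kept if in 1 or more of the 8 groups 80% or more of its spots were well above background. The 8 groups were fitted in 1 model with limma 3.58.1 (R 4.3.3), with moderated two-sided tests and Benjamini-Hochberg adjustment at 1% over all 42436 probes. The out-of-range test took the larger p of the comparisons with both purebreds. Intervals are 95%.

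Gene symbols came from the array files, RefSeq tables and, for 329 spots, the study's gene lists. The main probe of a gene is its brightest. Genes named by rule are the called main probes with signal in all groups and the same sign in both crosses, the 5 largest additive genes per direction, 23 genes from the study's text and up to 3 examples per list. The comparison and the gene lists were chosen with earlier results of these data known. Replicate numbers follow accession order and pair nothing. The random sow effect of the study's model was left out, so p-values take litter-mates as independent. All arrays were scanned on 1 day, on 8 slides. The precision is limited by 5 to 9 fetuses per group. Scripts were tested on simulated data.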

Additional observations from a re-analysis of the deposited data

Results flagged for a closer look

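Among 264 combinations of a described probe and a group of 4 to 10 fetuses, 20 held a fetus far from the others of its group by Dixon's criterion; chance alone marks about 1 in 20. Of these, 8 were values of LWLW replicate 9. Its log2 signals were 8.72 and 7.99 for the 2 probes of ARG2, 14.62 and 14.52 for 2 probes of GPD1, 12.45 for SGCE, 13.80 for PEG10, 17.10 for IGF2 and 2.52 for IYD. For these probes it was the LWLW fetus closest to MSMS. Its median position between the breeds, over the probes that differed by at least 1 at day 90, was 0.04.

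MSMS replicate 6 was at 9.90 for MTP18 and 9.86 for MTFP1, where the next MSMS fetus was at 3.20 and 3.84, and at 8.80 for an unnamed probe called without a breed difference. For MMRN2, MSLW replicate 5 was at 6.44 on 1 probe and MSMS replicate 7 at 4.97 on another. Single outlying values were also found for PECI (9.13, LWMS replicate 8), PHKA1 (12.24, LWMS replicate 8), GBP1 (4.73, LWMS replicate 3), A_72_P019101 (3.14, LWMS replicate 2), STMN1 (11.29, MSMS replicate 7), IL1RAPL2 (6.20, MSMS replicate 4) and A_72_P265537 (5.76, LWLW replicate 7).

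The deviation d of A_72_P211877 differed between day 110 and day 90 by 1.66 as measured (limma interaction, adjusted p under 1%), and by 0.71, with no test, with MSMS of day 110 at its lowest measurable signal. The crosses differed from each other, by the test of LWMS less MSLW, for CREM (-0.52), MAGEL2 (-1.56), PHKA1 (0.75), IL1RAPL2 (-0.76) and IYD (-1.53).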

How the results depend on the processing

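No probe was called outside the parental range under any setting run for it or in the 29 leave-out fits. The additive count stayed within 1.5 times of 802 in those run for it. The 33 probes called for d became 21 with the median signal, 20 with the deposited table, 19 with normexp, 21 with the arrays of day 110 alone, 10 with probes well above background on all 29 arrays, 82 at an FDR of 5% and 2 with the linear mid-parent. Dominant calls (28) became 17, 16, 12, 17, 6, 53 and 1 in that order. LWMS calls (159) became 67 with day 110 alone and 308 at 5%, and MSLW calls (79) became 40 and 238. The 1 age difference was lost (0) with the median signal, the deposited table, 75th percentile scaling, the stricter filter and the linear mid-parent. The direction of d, among called probes that differed between the breeds at day 90, was upward for 100%. With the linear mid-parent it was upward for 0% of 1 probe. Scaling by the 75th percentile moved the median breed difference to 0.06 and left the median d at 0.00.

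Alternatives chosen after seeing the data gave, with the linear mid-parent, 2 called and 1 dominant probe with slide as a block, 1 and 0 with 75th percentile scaling, and 12 dominant probes at 5%. Requiring signal in 80% of each of the 4 groups left 10 called. Deviations that changed sign against the linear mid-parent were those of FAM118A (-0.008 and -0.030), A_72_P417829 (-0.174), A_72_P211877 (-0.015), IYD (-0.303 and -0.116), CNTN3 (-0.074) and A_72_P265537 (-0.276), because that mid-parent lies higher by construction. Leaving out 1 fetus gave 24 to 47 called probes (fewest without MSLW replicate 2, most without MSMS replicate 6), 0 out of range, 108 to 182 for LWMS, 49 to 104 for MSLW, 10946 to 12674 breed-different, 633 to 860 additive, 17 (without MSLW replicate 4) to 35 dominant, 0 to 3 for age and 100% each time for the direction. The other causes of these changes were not tested. No paired analysis was possible because replicate numbers follow accession order and pair no fetuses; slides were used as a block instead.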
